A study of Mus musculus with 10 samples.

Results

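The pan-leukocyte genes are 10 genes that most blood-derived white cells express, led by Ptprc, which encodes the leukocyte surface antigen CD45. They were chosen by name, as genes shared by most white cells, and by 2 measured values, a signal on every array and the mean level of a probe set over all mice. The list is meant as a measure of total leukocyte RNA in fat. A member had to have a probe set that named 1 gene and had a value on all 10 arrays, and the probe set with the highest mean was to stand for a gene with several. All 10 members were measured, out of 19659 genes in the table, and each had 1 probe set, so the choice by mean decided nothing. The list was drawn up when differences between the genotypes in these data were already known, those of Ptprc and Arhgdib among them, so the counts of members below describe the list and are no independent support for its direction.

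The tissue was subcutaneous white fat of the inguinal-femoral depot from untreated, chow-fed female F2 mice aged 14 weeks, with 1 array per animal. The labels put 5 mice in the FF group (Fat/Fat, homozygous for the Fat-line allele at the obesity locus Fob3a) and 5 in the VV group (V/V, homozygous for the other allele, which the labels call V and Lean-line). Both groups come from a cross of the Fat line with a V congenic line that had itself been backcrossed repeatedly to the Fat line, so all mice share a largely Fat-line background. The groups therefore model a segment of the Fat-line genome around Fob3a and not a change in 1 gene. Values are normalised log2 intensities, on which a difference of 1 is a doubling of signal, and differences are FF minus VV throughout. Mice are called FF1 to FF5 and VV1 to VV5 after the replicate numbers in the labels. Intensities of different probe sets were compared only to pick a gene's brightest probe set and to set dim genes apart.

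White fat holds resident and passing leukocytes among its adipocytes. CD45 is a receptor tyrosine phosphatase on the surface of nucleated blood cells, where it activates Src-family kinases. The other members serve the surface (Cd53, a tetraspanin, and Cd52, a small glycoprotein of lymphocytes and other leukocytes), the lysosome (Laptm5), signalling to the cytoskeleton (Vav1, Rac2 and Arhgdib) and actin itself (Was, Coro1a and Lcp1). The haematopoietic transcription factor PU.1 binds purine-rich elements of many leukocyte promoters. RNA from bulk tissue cannot tell fewer leukocytes from less RNA per leukocyte.

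Promoter sequence in the RefSeq table (build GRCm38.p6) matched 8 of the 10 members; Cd52 and Rac2 had none listed. The 250 bases before the most upstream listed start of each gene were searched on both strands for GAGGAA, a core of PU.1-type elements. It was present in 4 of the 8 windows (Ptprc, Cd53, Laptm5 and Vav1) and in 23.1% of the 27025 genes with a listed window. TGTGGT, a Runx-type core, was present in 2 of the 8 windows and in 14.15% of all genes. GGGCGG, a GC box, was present in 3 windows against 32.96% of genes, and TATAAA in 3 against 12.98%. These matches are letters in a window and no evidence of binding. Of the members described next, Cd53 and Vav1 are shown because their windows hold GAGGAA and lie wholly outside the gene, and Arhgdib because its level fell and its window holds no GAGGAA. The Cd53 window is chr3:106790150-106790399 on the minus strand, that of Vav1 chr17:57278850-57279099 on the plus strand and that of Arhgdib chr6:136941900-136942149 on the minus strand, and capitals mark GAGGAA, which begins at -39 in Cd53 and at -11 in Vav1 relative to the start.
Cd53: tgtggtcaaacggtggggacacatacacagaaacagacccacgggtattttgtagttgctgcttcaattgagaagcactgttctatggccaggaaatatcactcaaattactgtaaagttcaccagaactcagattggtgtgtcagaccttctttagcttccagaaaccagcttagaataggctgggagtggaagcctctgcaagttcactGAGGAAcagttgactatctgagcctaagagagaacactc
Vav1: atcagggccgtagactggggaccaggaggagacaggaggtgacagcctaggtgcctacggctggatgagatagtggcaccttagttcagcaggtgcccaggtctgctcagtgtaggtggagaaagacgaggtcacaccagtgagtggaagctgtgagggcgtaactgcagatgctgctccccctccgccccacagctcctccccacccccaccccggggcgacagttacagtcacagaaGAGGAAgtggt
Arhgdib: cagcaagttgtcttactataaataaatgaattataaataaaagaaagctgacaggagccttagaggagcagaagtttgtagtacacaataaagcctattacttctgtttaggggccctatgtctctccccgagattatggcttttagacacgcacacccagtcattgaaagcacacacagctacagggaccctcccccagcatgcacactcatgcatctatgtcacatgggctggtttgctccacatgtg

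Each of the 10 members had its lower mean in the FF group, and 2 of them, Ptprc and Arhgdib, fell past an adjusted p of 0.05 in limma over all genes. The differences ran from -0.69 for Cd52 to -0.17 for Was, with a median of -0.44. Over all 19659 genes the median difference was 0.00081 and 49.7% of the differences were negative. Genes called lower in FF made up 0.132% of all genes, those called higher 0.621% and both together 0.753%. At an unadjusted p under 0.05 all 10 members were lower in FF, where 6.18% of all genes were. For 6 members (Ptprc, Cd53, Vav1, Arhgdib, Was and Lcp1) every FF mouse lay below every VV mouse, which held for 1.34% of all genes, and the opposite held for no member and 3.34% of all genes. Because the members were chosen with such results known, their counts are set beside these shares without a test.

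**Figure D1:**
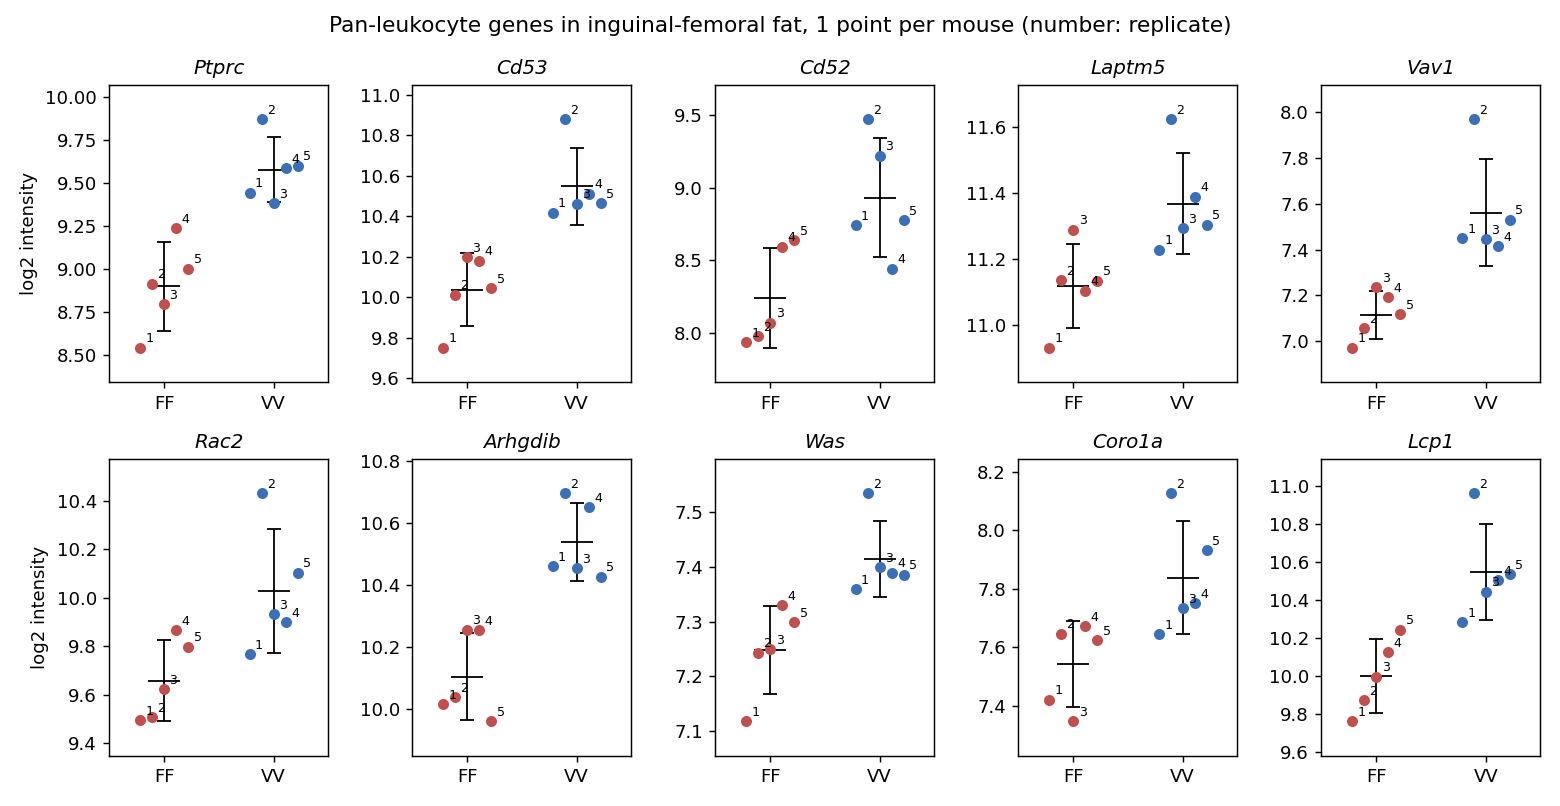
Each panel plots 1 gene, with log2 intensity on the vertical axis (its own range per panel), FF at the left and VV at the right. Points are mice with their replicate number, and the cross and bars are the mean and SD of 5 mice. VV2 is the highest mouse in every panel, and FF1 is the lowest in 8 of the 10.

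Ptprc fell 1.60-fold in FF fat. Its log2 intensities were 8.54, 8.92, 8.80, 9.24 and 9.002 in FF1 to FF5, against 9.45, 9.87, 9.39, 9.59 and 9.60 in VV1 to VV5. The highest FF mouse, FF4, lay 0.147 below the lowest VV mouse, VV3. The means were 8.90 ± 0.26 in FF and 9.58 ± 0.19 in VV (SD over 5 mice a group), a difference of -0.68 ± 0.13 (SE) with a 95% interval from -0.96 to -0.40 and a limma adjusted p of 0.0422, rank 104 of all genes by p. The call was not stable when single mice were left out. It held without FF3, FF4 or VV1 (adjusted p = 0.0369 to 0.0468). It was lost in limma without FF1 (adjusted p = 0.0927), FF2 (0.104), FF5 (0.0676), VV2 (0.0935), VV3 (0.0575), VV4 (0.0991) or VV5 (0.0813). In these 10 fits the difference stayed between -0.76 and -0.59.

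Cd53, whose product organises receptors in the leukocyte membrane, showed the same separation of the groups without passing the threshold. It read 9.75, 10.01, 10.20, 10.18 and 10.04 in FF mice and 10.42, 10.88, 10.46, 10.51 and 10.46 in VV mice. The gap between the groups, 0.219, was the widest among the members. The difference was -0.51 ± 0.10 (SE), with a limma adjusted p of 0.0545. Without FF3 it passed (adjusted p = 0.0393).

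Cd52, a target of therapeutic antibodies in humans, had the largest mean difference and the largest spread. It read 7.94, 7.98, 8.07, 8.59 and 8.64 in FF mice and 8.74, 9.47, 9.22, 8.44 and 8.78 in VV mice. The groups overlapped, since VV4 lay below FF4 and FF5. The difference was -0.69 ± 0.21 (SE) with a 95% interval from -1.15 to -0.23 and a limma adjusted p of 0.130. Laptm5, a lysosomal membrane protein that limits antigen receptor levels in lymphocytes, read 10.93, 11.13, 11.29, 11.10 and 11.13 in FF mice and 11.23, 11.62, 11.29, 11.39 and 11.30 in VV mice. The groups overlapped, since FF3 lay above VV1. Its difference was -0.25 ± 0.08 (SE), with a limma adjusted p of 0.164.

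Among the signalling members Arhgdib, which is abundant in blood cells, fell 1.35-fold in FF fat. It read 10.02, 10.04, 10.26, 10.25 and 9.96 in FF mice, against 10.46, 10.70, 10.45, 10.65 and 10.43 in VV mice. No FF mouse reached a VV mouse, and the gap was 0.170. The means were 10.11 ± 0.14 in FF and 10.54 ± 0.13 in VV (SD over 5 mice a group), a difference of -0.43 ± 0.08 (SE) with a 95% interval from -0.61 to -0.26 and a limma adjusted p of 0.0402, rank 96 by p. The limma call held without FF3 (adjusted p = 0.0277) or VV1 (0.0449). It was lost without FF1 (0.103), FF2 (0.107), FF4 (0.0513), FF5 (0.0763), VV2 (0.0935), VV3 (0.0644), VV4 (0.0988) or VV5 (0.0652), all limma adjusted p. In these 10 fits the difference stayed between -0.47 and -0.39.

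Vav1, the exchange factor that loads Rac GTPases after antigen receptor engagement, read 6.97, 7.06, 7.24, 7.19 and 7.12 in FF mice and 7.45, 7.97, 7.45, 7.42 and 7.53 in VV mice. The groups did not overlap. The difference was -0.45 ± 0.10 (SE), and the limma adjusted p was 0.0692. Rac2, the haematopoietic Rac GTPase that drives the phagocyte NADPH oxidase, read 9.49, 9.51, 9.62, 9.87 and 9.80 in FF mice and 9.77, 10.43, 9.93, 9.90 and 10.10 in VV mice. FF4 and FF5 lay above VV1. Its difference was -0.37 ± 0.12 (SE), with a limma adjusted p of 0.158. Rac2 is the 1 member on chromosome 15, the chromosome of Deptor, the gene named in the title of the series, and its difference lay within the range of the other members.

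Of the actin genes, Lcp1, which encodes the leukocyte actin-bundling protein L-plastin, read 9.76, 9.87, 9.996, 10.13 and 10.24 in FF mice and 10.28, 10.96, 10.44, 10.50 and 10.54 in VV mice. The groups were separated by 0.039, less than the SD of either. The difference was -0.54 ± 0.13 (SE), with a limma adjusted p of 0.0692. Coro1a, a coronin that regulates actin turnover and T cell survival, read 7.42, 7.65, 7.35, 7.67 and 7.63 in FF mice and 7.64, 8.13, 7.73, 7.75 and 7.93 in VV mice. VV1 lay below FF2 and FF4. Its difference was -0.29 ± 0.10 (SE), with a limma adjusted p of 0.164. Was, whose product activates the Arp2/3 complex and is lost in Wiskott-Aldrich syndrome, read 7.12, 7.24, 7.25, 7.33 and 7.30 in FF mice and 7.36, 7.54, 7.40, 7.39 and 7.39 in VV mice. The groups were separated by 0.030. Was had the smallest difference of the members, -0.17 ± 0.05 (SE), with a limma adjusted p of 0.141.

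**Figure D2:**
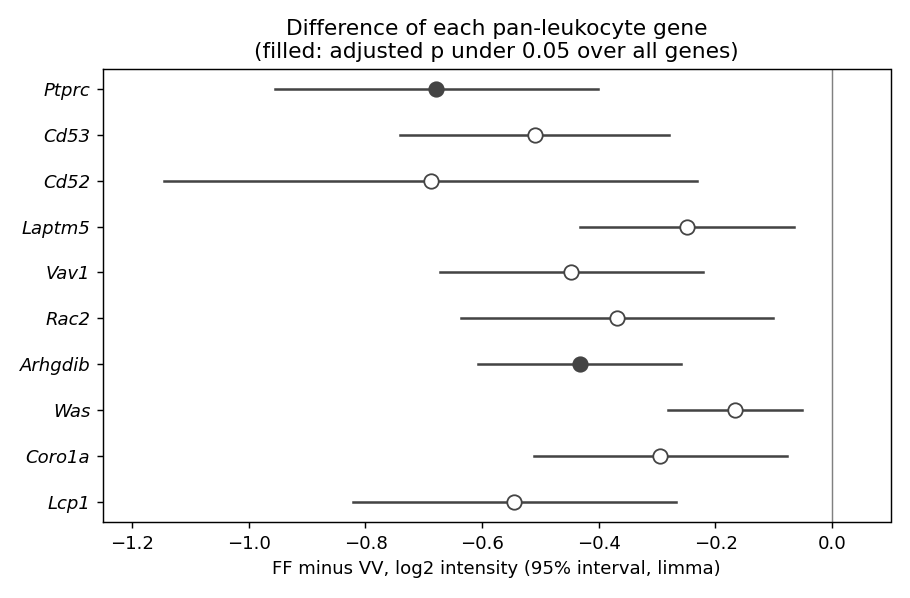
The horizontal axis is the difference FF minus VV in log2 intensity, with points for limma estimates and lines for 95% intervals. Filled points mark Ptprc and Arhgdib, the members past an adjusted p of 0.05 over all genes. All 10 intervals lie below 0, from -0.69 for Cd52 to -0.17 for Was at their centres.

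The members shared their highest mouse and mostly their lowest, while the mice between varied in order. VV2 was the highest mouse for all 10 members. FF1 was the lowest for 8, FF3 for 1 (Coro1a) and FF5 for 1 (Arhgdib). The highest FF mouse was FF3 for 4 members, FF4 for 4 and FF5 for 2. Within the VV group, VV1 was the lowest for 6 members. Averaged over the members after centring each gene on its mean over the 10 mice, the score was -0.42, -0.27, -0.21, -0.06 and -0.13 in FF1 to FF5 and 0.06, 0.54, 0.16, 0.14 and 0.19 in VV1 to VV5. The scores averaged -0.22 ± 0.14 in FF and 0.22 ± 0.19 in VV (SD over 5 mice a group), a difference of -0.44. FF4 and VV1 stood nearest to each other. The difference was -0.36 without VV2 and -0.39 without FF1, the mice at the extremes. Each member's Pearson correlation with the mean of the other members over the 10 mice lay between 0.85 (Arhgdib) and 0.98 (Was), and between 0.49 (Arhgdib) and 0.96 (Was) after the group means were subtracted. These correlations are descriptions, since all genes of a mouse share 1 array.

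RNA of other tissues differed between the same mice. Apoa1, made by liver, read 7.30 to 8.07 in FF mice and 12.61, 9.48, 7.34, 8.30 and 7.68 in VV1 to VV5, and Ckm, the muscle creatine kinase, read 9.91 in FF1 and at most 8.27 in any other mouse. The score of 14 liver genes spanned -0.65 to -0.25 in FF and -0.76 to 3.73 in VV, that of 14 muscle genes -0.48 to 1.90 in FF and -0.44 to 0.23 in VV, and none of these 28 genes passed in limma (1 muscle gene had an unadjusted p under 0.05). VV1, with the most liver RNA, had the lowest pan-leukocyte score of the VV mice, VV2, with the second most, had the highest, and FF1, with the lowest score of all, had the most muscle RNA. With FF1 and VV1 left out together the mean difference of the members was -0.43 and no member passed, with the lowest limma adjusted p at 0.0849. Adipoq, the adipocyte hormone adiponectin, read 13.25 to 13.41 in FF mice and 13.29 to 13.44 in VV mice. The mature adipocyte score spanned -0.01 to 0.08 in FF and -0.09 to 0.03 in VV, so that the groups overlapped in it while they did not in the pan-leukocyte score. The array medians over the 25689 valued probe sets were 7.15 to 7.17 in FF and 7.18 to 7.21 in VV. Centring each array on its median over the 19659 genes left the mean difference of the members at -0.42. Centring on the medians over all valued probe sets was not tested.

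Other genes of white blood cells were also lower in FF by their means. Of 29 measured genes in a list of other pan-leukocyte genes, all 29 were lower in FF, with a median difference of -0.34 and a range from -0.64 to -0.05. None passed the limma threshold over all genes, and 24 had an unadjusted p under 0.05 and were lower in FF, beside 6.18% of all genes. Every FF mouse lay below every VV mouse for 9 of the 29, beside 1.34% of all genes. Ikzf1, a transcription factor of lymphoid development, averaged 7.68 ± 0.14 in FF and 8.07 ± 0.14 in VV (SD over 5 mice a group; limma adjusted p = 0.0586). Il10ra, a receptor chain for interleukin 10, differed by -0.44 (limma adjusted p = 0.0511), Dock2, an activator of Rac in leukocytes, by -0.54 (0.0651) and Nckap1l, a subunit of the WAVE complex in blood cells, by -0.47 (0.0651). Ptprcap, which encodes a CD45-associated protein, differed by -0.31 (limma adjusted p = 0.134). Without FF3 or VV1, 1 gene of this list passed.

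Partners of the members were mostly lower in FF by their means. Of 21 measured kinases, Arp2/3 subunits, NADPH oxidase subunits and other partners, 20 were lower in FF, with a median of -0.16. None passed in limma and 11 had an unadjusted p under 0.05, beside 6.18% of all genes lower in FF. Beside Nckap1l, Cybb, the catalytic subunit of the phagocyte NADPH oxidase that Rac2 activates, had the smallest p, at a difference of -0.42 ± 0.11 (SE; limma adjusted p = 0.0902). Without VV2 the median was -0.12 and 6 had an unadjusted p under 0.05 in limma. The share of all genes in that fit is not given here.

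Paralogues of the members, most of them used by many cell types, did not share the direction. Of 26 measured, 13 were lower and 13 higher in FF, with a median of 0.001. None passed in limma; 5 were lower and 3 higher at an unadjusted p under 0.05, where 6.18% and 10.2% of all genes were. Coro2b, a coronin of other tissues, averaged 9.28 ± 0.13 in FF fat and 8.996 ± 0.099 in VV fat (SD over 5 mice each), a difference of 0.28 (limma adjusted p = 0.0844), and Coro7 differed by 0.17 (0.108), while Coro1a differed by -0.29. Coro1c differed by -0.17 (limma adjusted p = 0.175). Pls3, the plastin of non-blood cells, differed by -0.20 (limma adjusted p = 0.171) beside -0.54 for Lcp1. The receptor phosphatases Ptprj and Ptpre, which leukocytes also express, differed by -0.35 (limma adjusted p = 0.111) and -0.27 (0.206).

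**Figure D3:**
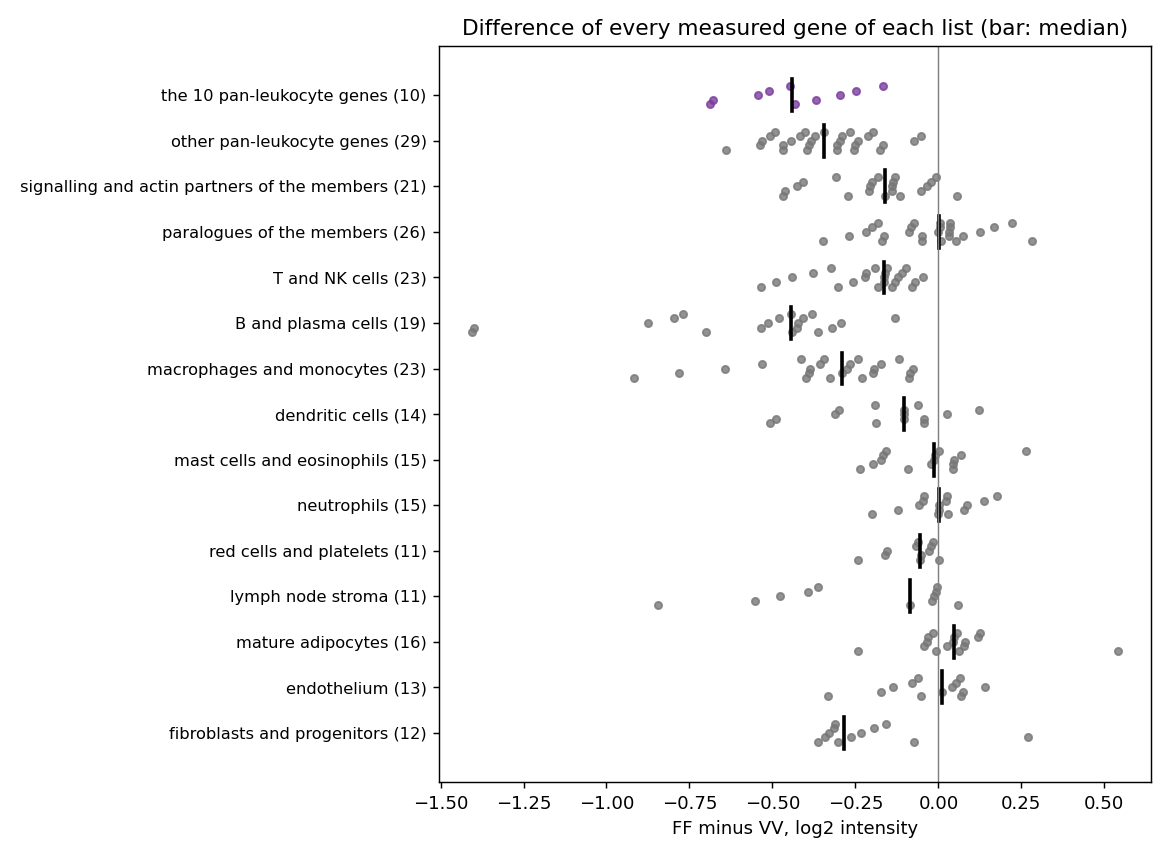
Each point is 1 measured gene of a list, placed by its difference FF minus VV in log2 intensity; black bars are list medians and the number measured stands in parentheses. The pan-leukocyte genes lie at a median of -0.44, other pan-leukocyte genes at -0.34, B and plasma cell genes at -0.44 and paralogues at 0.001.

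Markers of single leukocyte classes were then set beside the members. Of 23 measured macrophage and monocyte genes, all were lower in FF, with a median of -0.29. None passed in limma and 17 had an unadjusted p under 0.05, beside 6.18% of all genes lower in FF. Adgre1, which encodes a defining surface antigen of macrophages, read 9.44 to 9.97 in FF mice and 10.04 to 10.83 in VV mice (difference -0.53 ± 0.15 SE, limma adjusted p = 0.105). Ccr2, a chemokine receptor of recruited monocytes, differed by -0.64 (limma adjusted p = 0.0511) and Mpeg1, a pore-forming protein of macrophages, by -0.78 (0.0887). The list's count past the threshold was 1 without FF1 and 2 without FF3.

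B and plasma cell genes had a median of -0.44 and a range from -1.41 to -0.13. All 19 measured genes were lower in FF, 15 of them at an unadjusted p under 0.05, beside 6.18% of all genes. None was past the threshold in limma. Ms4a1, which encodes CD20, read 7.79, 7.04, 7.39, 8.92 and 6.84 in FF1 to FF5 and 8.53, 9.55, 8.61, 8.98 and 9.34 in VV1 to VV5. FF4 lay within the VV range while the other FF mice lay below it. The difference was -1.41 ± 0.36 (SE; limma adjusted p = 0.0875), and without FF4 it was -1.74 (0.0330). Fcer2a, which encodes the B cell receptor CD23 for immunoglobulin E, differed by -0.77 (limma adjusted p = 0.0887). Without FF4, 1 of the 19 genes passed, and likewise without VV1.

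T and NK cell genes were lower in FF by their means as well. All 23 measured were lower, with a median of -0.16. Most of them were dim: 3 lay above the median intensity of all genes, with a median difference of -0.38. Of the 23, 15 had an unadjusted p under 0.05, beside 6.18% of all genes lower in FF, and none passed in limma. Cd4, the coreceptor of helper T cells, averaged 7.19 ± 0.07 in FF and 7.50 ± 0.11 in VV (SD over 5 mice a group), with a limma adjusted p of 0.05003 that just missed the threshold, and it passed without VV1 (0.0300). Gzma, a granzyme of cytotoxic lymphocytes, differed by -0.44 (limma adjusted p = 0.0625) and Cd3e, a chain of the T cell receptor complex, by -0.22 (0.306). The list had 1 gene past the threshold without FF3, FF4, VV1 or VV3. Of 14 dendritic cell genes 12 were lower, with a median of -0.10, and 1 fell, Irf8, a transcription factor of dendritic cells and monocytes (-0.51 ± 0.09 SE, limma adjusted p = 0.0352). That call was lost without any single mouse except FF3 or VV1 (limma adjusted p = 0.0612 to 0.0921). Flt3, a growth factor receptor of dendritic cell precursors, differed by -0.06 (limma adjusted p = 0.625) and Xcr1, a chemokine receptor of cross-presenting dendritic cells, by -0.30 (0.167).

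Lists of granulocytes, red cells and platelets had medians between -0.05 and 0.003, and most of their genes were dim. Above the median intensity of all genes lay 6 of 15 mast cell and eosinophil genes (median difference 0.04), 2 of 15 neutrophil genes (0.05) and 2 of 11 red cell and platelet genes (-0.20). Of 15 mast cell and eosinophil genes 9 were lower and 6 higher, with a median of -0.01. Kit, the stem cell factor receptor of mast cells, differed by 0.26 (limma adjusted p = 0.240), Siglecf of eosinophils by -0.17 (0.201) and Hdc, the histamine-forming enzyme, by -0.16 (0.304). Of 15 neutrophil genes 6 were lower and 9 higher, with a median of 0.003. S100a8, an abundant neutrophil protein, differed by 0.03 (limma adjusted p = 0.912), Csf3r by -0.20 (0.203) and Mmp8 by 0.14 (0.269). None of these 30 genes passed in limma. At an unadjusted p under 0.05, 3 were lower and 2 higher, beside 6.18% and 10.2% of all genes. Of 11 red cell and platelet genes 10 were lower, with a median of -0.05 and none under an unadjusted p of 0.05 or past the threshold; Alas2, of haem synthesis in red cells, differed by -0.24 (limma adjusted p = 0.594), Pf4 by -0.16 (0.556) and Slc4a1 by -0.16 (0.560). The counts of direction in these lists depended on processing. After quantile normalisation 6 of 15 mast cell and eosinophil, 7 of 15 neutrophil and 8 of 11 red cell and platelet genes were lower. With array weights the numbers lower were 12, 9 and 11. Differences between these lists and the members were not tested.

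**Figure D4:**
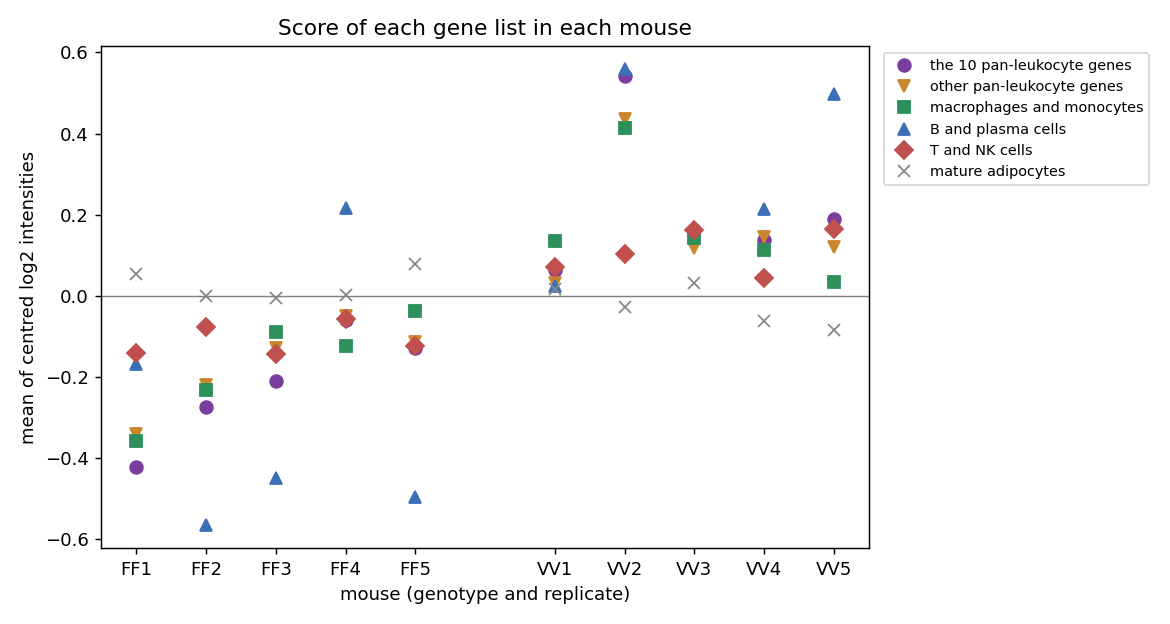
The vertical axis is the mean of the centred log2 intensities of a list and the horizontal axis the 10 mice, FF at the left and VV at the right. The pan-leukocyte score is at most -0.06 in FF and at least 0.06 in VV. The B and plasma cell score of FF4, 0.22, lies within the VV range, and the mature adipocyte score stays between -0.09 and 0.08.

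Some genes of cells other than leukocytes were lower in FF as well. The inguinal depot surrounds a lymph node, and the score of 11 measured lymph node stroma genes spanned -0.21 to -0.08 in FF and 0.06 to 0.17 in VV, without overlap. Cxcl13, the chemokine of B cell follicles, read 11.08, 10.09, 10.88, 11.54 and 10.34 in FF1 to FF5 and 11.59, 11.55, 11.59, 11.71 and 11.72 in VV1 to VV5. FF4 was the highest FF mouse in Cxcl13, as it was in Ms4a1, and lay just below the lowest VV mouse. Of the 11 genes 10 were lower in FF, with a median of -0.09, or -0.24 over the 4 above the median intensity of all genes. The count of lower genes depended on processing. It was 6 of 11 after quantile normalisation (median -0.11) and 6 of 11 after median centring (median -0.06). As reported, 3 had an unadjusted p under 0.05, beside 6.18% of all genes lower in FF. None passed in limma, or 1 without VV1. Cxcl13 differed by -0.84 (limma adjusted p = 0.0964) and Cr2, a complement receptor of B cells and follicular dendritic cells, by -0.36 (0.112). Cr2 also counts among the B and plasma cell genes above. The part of lymph node tissue in the pan-leukocyte difference was not tested.

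Of 12 fibroblast and progenitor genes 11 were lower in FF, with a median of -0.28. None passed in limma and 4 had an unadjusted p under 0.05, beside 6.18% of all genes lower in FF. Col3a1, a fibrillar collagen, differed by -0.36 (limma adjusted p = 0.0805), Fap, a fibroblast surface protease, by -0.34 (0.0544) and Pdgfra by -0.26 (0.439). Their scores overlapped, from -0.36 to 0.21 in FF and from -0.07 to 0.24 in VV. Without VV1, 3 of the 12 passed, and 1 without FF3. Of 13 endothelial genes 6 were lower and 7 higher, with a median of 0.01 and none past the threshold. In each direction 1 had an unadjusted p under 0.05, beside 6.18% of all genes lower and 10.2% higher. Pecam1 differed by -0.17 (limma adjusted p = 0.354), Cldn5 by -0.33 (0.158) and Flt1 by 0.14 (0.231). Of 16 mature adipocyte genes 10 were higher, with a median of 0.05 and none past the threshold in limma. At an unadjusted p under 0.05, 4 were higher and 1 lower, beside 10.2% and 6.18% of all genes. Every FF mouse lay above every VV mouse for 2 of the 16 (Slc2a4 and Lipe), beside 3.34% of all genes, and the opposite held for none. Slc2a4, which carries glucose into adipocytes under insulin, differed by 0.54 (limma adjusted p = 0.0756), Lipe, the hormone-sensitive lipase, by 0.12 (0.152) and Adipoq by -0.03 (0.783). The part of these other cells in the pan-leukocyte difference was not tested.

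The genes most like the members were then sought. Likeness was the Pearson correlation with the mean of the members, over 10 mice of both genotypes, so the group difference contributes to it. The highest were Nckap1l (0.979), Hcls1, a cortactin-related substrate of leukocyte kinases (0.977), Glipr1 (0.975), Dock2 (0.971) and Map4k1, a haematopoietic kinase (0.969). After the group means were subtracted the same 5 had correlations of 0.911 to 0.934. Glipr1 differed by -0.66 (limma adjusted p = 0.0674), Hcls1 by -0.29 (0.0749) and Map4k1 by -0.32 (0.0844). Those most like Ptprc alone were Rel, an NF-kappaB subunit of lymphocytes (0.975), Ciita, the activator of class II antigen presentation (0.966), Plcb2, a phospholipase of blood cells (0.960), Ncf4, a subunit of the phagocyte oxidase (0.957), and Hcls1 (0.956). They differed by -0.43, -0.29, -0.39, -0.46 and -0.29, with limma adjusted p from 0.0692 to 0.0962.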

How the data were processed

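Expression was measured on 10 one-colour arrays with biotin-labelled target, 1 per mouse. The deposited values are log2 intensities per probe set that the authors normalised between arrays with RMA, per the submitters' processing notes. For its version and the genome build the sources used here give nothing. The table lists 35557 probe sets, 25689 of them valued on every array and 9868 on none. Only the 20777 valued probe sets assigned to a single gene were used; 232 with several genes and 4680 absent from the platform table were not. Where a gene had several (566 genes), its brightest by mean was kept, giving 19659 genes. A RefSeq reference on GRCm38.p6 supplied names and chromosomes for 20699 probe sets. Precision is limited by the number of arrays.

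FF and VV were compared by two-sided moderated tests without covariates (lmFit and eBayes of limma 3.58.1 in R 4.3.3), adjusted by Benjamini-Hochberg over all genes at a threshold of 0.05; the procedure was tested on simulated data. The members and lists were chosen with earlier results of these data known, and 2 list genes were found through a synonym. Lists are described by counts and medians without a test. Named are the members, the first gene of each list where measured, the 2 others with the smallest p (4 for the other pan-leukocyte genes; the 6 smallest for the paralogues), and the 5 genes most like the members and most like Ptprc. Alternatives were leaving out each mouse, FF1 with VV1, a block for the replicate number, quantile normalisation, median centring, filters at the median and the 25th percentile of intensity, averaging a gene's probe sets, a trended robust fit, array weights and an adjusted p of 0.10. Figures were drawn with matplotlib 3.10.9.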

Additional observations from a re-analysis of the deposited data

Results flagged for a closer look

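Single mice stood apart from the other 4 of their group in 18 of 168 groups of 5 values checked with Dixon's ratio. Chance alone would flag about 1 of 20 independent groups. The groups checked are not independent, since genes of a mouse share 1 array and scores average genes also checked singly. Whether 18 is more than chance was therefore not tested. VV2 accounts for most of the flags among leukocyte genes. It read 10.88 for Cd53 with the next VV mouse at 10.51, 7.97 for Vav1 with the next at 7.53, and 7.54 for Was with the next at 7.40. It also stood apart for Nckap1l at 9.99, for Adgre1 at 10.83 and for Hcls1 at 9.13. In scores it stood apart for the pan-leukocyte genes (0.54, next 0.19), the other pan-leukocyte genes (0.44), the partners of the members (0.30) and the macrophages and monocytes (0.41). This mouse also carried the second most liver RNA, with Alb at 12.56 and a liver score of 0.55; VV1, with the most at 3.73, had the lowest pan-leukocyte score of the VV mice, 0.06. The part of liver RNA in the leukocyte values was not tested.

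Among FF mice, FF1 stood apart as low for Mpeg1 at 7.42, the next mouse being at 8.13, and as high for Mmp8 at 4.97. It was also high for Ckm at 9.91 and for the skeletal muscle score at 1.90. In the VV group, VV1 stood apart for Ckm at 8.27 and for the muscle score at 0.23, VV4 for Cldn5 at 11.21, and VV5 for the mast cell and eosinophil score at 0.11.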

How the results depend on the processing

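All 198 differences of single members under the alternatives were negative, but not all of them could change. By construction, the intensity filters, probe set averaging and the adjusted p of 0.10 left each member's reported difference as it was. So did the trended robust fit and the replicate block. The mean difference of the members ran from -0.48 to -0.36 when single mice were left out. The number of members lower in FF past the threshold, 2 as reported, ran from 0 to 3 when single mice were left out. It was 4 of 8 without genes below the median of intensity, 5 at an adjusted p of 0.10, and 0 with FF1 and VV1 left out together. The other pan-leukocyte genes past the threshold, 0 of 29 as reported, were 1 after median centring, 1 with a trended robust fit, 2 of 28 and 7 of 26 without genes below the 25th percentile and the median of intensity, 3 with array weights, 11 at an adjusted p of 0.10 and 0 to 1 without single mice. Over all genes, 122 were higher and 26 lower in FF as reported. The higher count was 74 after quantile normalisation. Higher and lower counts were 295 and 43 after median centring, 292 and 63 without genes below the median, 184 and 46 without those below the 25th percentile, 309 and 74 with array weights, 25 and 3 without FF1 and VV1 together, and 531 and 173 at an adjusted p of 0.10. Without single mice they ran from 7 to 313 and from 0 to 66, and the 0 arose without VV2. S100a8, at 0.03 as reported, was -0.048 without FF1, -0.0058 without VV4, -0.0024 without FF1 and VV1 together and 0.077 without FF3. The cause of these shifts was not tested. The filtered fits also held fewer genes, and the part of that number was not tested either. The replicate numbers did not pair the mice: deviations of same-numbered mice correlated at 0.10, 0.01, -0.08, -0.26 and -0.15, and 1 of the 5 FF mice correlated best with its own number. With the replicate block, 5 genes were higher and 0 lower in FF, and 0 members passed (lowest adjusted p = 0.134).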
